A study of Arabidopsis thaliana with 4 samples.

Results

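ATHILA elements are a group of large Gypsy-type long terminal repeat (LTR) retrotransposons that make up much of the repeat-rich DNA around the Arabidopsis thaliana centromeres. The regions described here are all differentially methylated regions, in any of 4 comparisons of light regimes, whose transposable element (TE) family name begins with ATHILA. They number 2529 of the 24806 listed regions (10.2%), with each position and sequence context counted once per comparison. They fall at 2248 distinct positions and contexts, in 956 TE loci that carry 16 family names.

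Leaf DNA of Col-0 plants was measured by whole genome bisulfite sequencing after 22 days of acclimation to a light regime. Light fluctuated through the day as under natural conditions, at low (FLL) or high intensity (FLH), or was held at a square, constant level, at low (SQL) or high intensity (SQH). The fluctuating and square regime of an intensity gave the same light in total over the day. DNA of 6 plants was pooled into 1 library for each regime, so that there is no replicate and the spread between plants cannot be given. A level is an average over the cells of the pooled leaves, so fewer methylated cells and less methylation in each cell cannot be told apart. Read counts are summed over the cytosines of a region, so a read that covers several of them is counted at each. Intervals in brackets are 95% Wilson intervals, or Newcombe intervals for differences. They address counting error only. Even for that they are too narrow, since reads over neighbouring cytosines, and copies of 1 molecule made by PCR, are not independent.

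Methylation is kept up by different enzymes in different sequence contexts. MET1 copies CpG methylation onto the new strand after replication. CpHpG methylation (H is A, C or T) is kept by CMT3 together with histone H3 lysine 9 methylation, and CpHpH methylation is laid down by CMT2 in long heterochromatic elements and by RNA-directed DNA methylation, mainly in short elements and at element edges. ATHILA elements are known for dense silencing in all contexts and for transcription in mutants that lose it, such as ddm1 and met1.

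The comparison of FLH against SQH listed 749 ATHILA regions among 6554 regions (11.4%), and that of FLL against SQL listed 829 among 8479 (9.78%). These comparisons differ in light pattern. The comparisons that differ in intensity listed 664 of 6272 for FLL against FLH (10.6%) and 287 of 3501 for SQL against SQH (8.20%). A region is called higher or lower by its level in the regime named first. Every listed region had passed the authors' test on the same reads, so directions and levels are given here as descriptions, with no further test, beside the same values over all listed regions.

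The regions with the largest difference in each comparison and context were taken from the 560 ATHILA regions whose cytosines had 8 or more reads each, on average, under both regimes of the comparison. The sequences of 8 of them are shown, because they carry the cytosines whose methylation differed. No CpG region of SQL against SQH reached that depth. Sequences are the forward strand of the RefSeq TAIR10.1 genome, in TAIR10 coordinates, with the cytosines of the called context in capitals (C for the forward strand, G for a cytosine of the opposite strand). Each is named by its TE locus, family and context.
AT2TE13390 (ATHILA2, CpG, FLH against SQH, chr2:3090851-3091000): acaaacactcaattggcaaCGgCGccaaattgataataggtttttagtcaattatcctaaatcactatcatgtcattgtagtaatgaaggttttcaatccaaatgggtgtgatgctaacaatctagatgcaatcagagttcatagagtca
AT5TE41835 (ATHILA6A, CpHpG, FLH against SQH, chr5:11574155-11574304): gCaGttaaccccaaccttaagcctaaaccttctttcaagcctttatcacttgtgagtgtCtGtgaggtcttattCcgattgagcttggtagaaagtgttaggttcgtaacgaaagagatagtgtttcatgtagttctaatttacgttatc
AT4TE16945 (ATHILA, CpG, FLL against SQL, chr4:3869801-3869950): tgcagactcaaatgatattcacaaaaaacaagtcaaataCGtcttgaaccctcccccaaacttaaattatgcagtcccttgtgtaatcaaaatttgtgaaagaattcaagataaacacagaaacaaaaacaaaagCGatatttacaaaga
AT1TE52995 (ATHILA0_I, CpHpG, FLL against SQL, chr1:16099351-16099500): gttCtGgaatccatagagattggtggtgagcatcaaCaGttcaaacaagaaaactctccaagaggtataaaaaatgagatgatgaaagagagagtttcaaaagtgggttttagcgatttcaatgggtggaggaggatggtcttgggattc
AT1TE27475 (ATHILA7, CpHpH, FLL against SQL, chr1:8515351-8515650): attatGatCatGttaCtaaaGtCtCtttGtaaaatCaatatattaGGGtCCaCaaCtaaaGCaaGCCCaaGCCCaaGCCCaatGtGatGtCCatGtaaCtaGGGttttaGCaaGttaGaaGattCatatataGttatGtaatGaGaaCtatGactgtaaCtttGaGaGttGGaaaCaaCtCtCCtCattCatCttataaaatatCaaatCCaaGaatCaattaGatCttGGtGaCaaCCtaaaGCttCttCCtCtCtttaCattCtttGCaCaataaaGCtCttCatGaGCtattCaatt
AT4TE18915 (ATHILA4A, CpG, FLL against FLH, chr4:4494251-4494400): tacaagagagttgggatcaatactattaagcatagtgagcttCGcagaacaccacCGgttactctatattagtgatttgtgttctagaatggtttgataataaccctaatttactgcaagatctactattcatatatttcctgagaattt
AT2TE15995 (ATHILA4C, CpHpG, FLL against FLH, chr2:3678401-3678550): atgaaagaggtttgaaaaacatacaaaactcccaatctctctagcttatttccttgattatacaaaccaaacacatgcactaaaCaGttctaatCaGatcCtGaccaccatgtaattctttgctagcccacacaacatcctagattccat
AT5TE38845 (ATHILA7, CpHpH, SQL against SQH, chr5:10673555-10673704): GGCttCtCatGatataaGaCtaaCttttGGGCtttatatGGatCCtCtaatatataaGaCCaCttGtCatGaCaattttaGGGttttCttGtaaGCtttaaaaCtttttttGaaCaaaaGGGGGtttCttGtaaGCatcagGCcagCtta

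The sequences differ in how many cytosines stand behind a value. AT2TE13390, AT4TE16945, AT4TE18915 and AT1TE52995 hold 4 called cytosines each, AT5TE41835 holds 5 and AT2TE15995 holds 6. The CpHpH regions hold many more, with 48 in AT5TE38845 and 99 in the 300 bp region of AT1TE27475.

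Between light patterns these regions differed as follows. The CpG region of AT2TE13390 was methylated at 55.3% in FLH (21 of 38 reads, 39.7 to 69.9) and 94.3% in SQH (33 of 35 reads, 81.4 to 98.4). The CpG region of AT4TE16945 had 60% in FLL (24 of 40 reads, 44.6 to 73.7) and 93.5% in SQL (43 of 46 reads, 82.5 to 97.8). Without the depth limit, large CpG differences went both ways. Of CpG regions with at least 40 points, 5 of 11 were higher in FLH than in SQH, beside 44.7% of all listed. In FLL against SQL 2 of 4 were higher in FLL, beside 26.1% of all listed. Both CpG regions shown here were lower under fluctuating light.

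The CpHpG regions went the other way. AT5TE41835 had 59.3% in FLH (32 of 54 reads, 46.0 to 71.3) and 15.0% in SQH (6 of 40 reads, 7.06 to 29.1). AT1TE52995 had 60.6% in FLL (20 of 33 reads, 43.7 to 75.3) and 23.2% in SQL (13 of 56 reads, 14.1 to 35.8). Both were higher under fluctuating light.

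AT1TE27475 stands apart from most ATHILA loci in its place on a chromosome arm. Its 300 bp CpHpH region had 18.9% in FLL (212 of 1123 reads, 16.7 to 21.3) and 1.26% in SQL (15 of 1192 reads, 0.764 to 2.07). The first 150 bp of the same window were listed for FLH against SQH as well, with 17.6% in FLH (114 of 647 reads) and 2.52% in SQH (12 of 476 reads). The table of FLL against SQL names AT1G24068, a non-coding RNA locus, at the 300 bp region, and the nearest protein-coding gene, AT1G24070, lies 516 bp away.

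Between intensities the CpG region of AT4TE18915 had 97.4% in FLL (37 of 38 reads, 86.5 to 99.5) and 52.8% in FLH (19 of 36 reads, 37.0 to 68.0). The CpHpG region of AT2TE15995 had 80.3% in FLL (53 of 66 reads, 69.2 to 88.1) and 37.3% in FLH (22 of 59 reads, 26.1 to 50.1). Both were higher in the low-intensity regime. Under square light the CpHpH region of AT5TE38845 had 26.8% in SQL (131 of 489 reads, 23.1 to 30.9) and 8.83% in SQH (34 of 385 reads, 6.39 to 12.1).

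The rule also picked a CpHpG loss under square light and a CpHpH gain in an LTR. AT3TE60200 (ATHILA3, chr3:14716001-14716150) had 30.0% CpHpG methylation in SQL (12 of 40 reads) and 70.6% in SQH (24 of 34 reads). AT1TE62830 (ATHILA4D_LTR, chr1:18971851-18972150) had 32.6% CpHpH methylation in FLL (238 of 731 reads) and 16.96% in FLH (136 of 802 reads).

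ATHILA elements took very unequal shares of the 3 contexts. Of all listed CpHpG regions, 894 of 3940 (22.7%) lay in ATHILA elements, against 1044 of 8154 CpG regions (12.8%) and 591 of 12712 CpHpH regions (4.65%). Among ATHILA regions 41.3% were CpG, 35.3% CpHpG and 23.4% CpHpH. Among all listed regions these shares were 32.9%, 15.9% and 51.2%. The order of contexts held in each comparison, with CpHpG regions 19.2 to 26.4% ATHILA, CpG regions 11.2 to 15.1% and CpHpH regions 3.85 to 5.60%. How many bins of each kind could have been called is not known from lists of called regions, so these are shares of what was listed and not rates.

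CpHpG methylation of ATHILA regions was higher under fluctuating light at both intensities. In FLH against SQH 245 of 282 CpHpG regions (86.9%, 82.4 to 90.3) were higher in FLH, beside 78.6% of all CpHpG regions listed in that comparison. In FLL against SQL 228 of 263 (86.7%, 82.1 to 90.3) were higher in FLL, beside 82.8% of all listed. These comparisons have no library in common. The direction is that of the lists as a whole, and the FLL share is close to that of all listed regions.

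Summed levels are given for the listed regions only. Each listed CpHpG region differed by at least 20 points, so the summed difference largely reflects that minimum and the split of directions. It is not the size of a difference over all ATHILA elements, and its interval does not address this. The same limit holds for the summed levels of the other contexts and comparisons below. Reads summed over the 282 regions were methylated at 55.6% in FLH (13927 of 25027 reads) and 36.6% in SQH (9635 of 26310 reads), a difference of 19.0 points (18.2 to 19.9). Over the 263 regions the level was 55.4% in FLL and 36.9% in SQL, a difference of 18.5 points (17.7 to 19.4). Over all CpHpG regions the differences were 15.8 and 17.1 points. Single regions spanned 1.89 to 95.8% in FLH (median 55.9%) and 6.12 to 88.9% in SQH (median 33.2%), so the regimes overlapped widely from region to region. In FLL they spanned 10.3 to 85.3% (median 55.8%), and in SQL 2.70 to 85.4% (median 35.1%).

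CpG methylation was lower under fluctuating light, and mostly so at low intensity. Between FLL and SQL, 52 of 401 CpG regions (13.0%, 10.03 to 16.6) were higher in FLL and 349 were lower, beside 22.4% higher among all listed. Between FLH and SQH, 132 of 322 (41.0%, 35.8 to 46.4) were higher in FLH, beside 42.4% of all listed. The direction was therefore mixed at high intensity and largely one-sided at low intensity. Whether the patterns differ between intensities was not tested.

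Summed CpG levels were 64.4% in FLL (19557 of 30364 reads) and 83.6% in SQL (26342 of 31523 reads), a difference of -19.2 points (-19.8 to -18.5). They were 71.7% in FLH and 76.8% in SQH, a difference of -5.01 points (-5.81 to -4.21). At 8 or more reads per cytosine the difference of FLH against SQH was -2.50 points. Regions that were lower moved between similar levels in both comparisons. The 349 lower regions had a median of 62.9% in FLL and 88.0% in SQL, and the 190 lower regions had 61.4% in FLH and 88.5% in SQH. CpG regions that were higher mirrored these values, with medians of 88.3% in FLH and 62.1% in SQH.

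CpHpH methylation was higher in FLL than in SQL at most regions. Of 165 CpHpH regions 141 (85.5%, 79.3 to 90.03) were higher in FLL, beside 73.3% of all listed. In FLH against SQH 91 of 145 (62.8%, 54.7 to 70.2) were higher in FLH, beside 44.7% of all listed, so that most ATHILA regions were higher while most listed regions were lower. Summed levels were 17.9% in FLL (9991 of 55821 reads) and 9.24% in SQL (5384 of 58278 reads). They were 15.8% in FLH and 12.4% in SQH. The difference was 8.66 points (8.26 to 9.06) at low intensity and 3.42 points (2.96 to 3.88) at high intensity, beside 7.34 and -1.19 points over all listed regions.

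**Figure D1:**
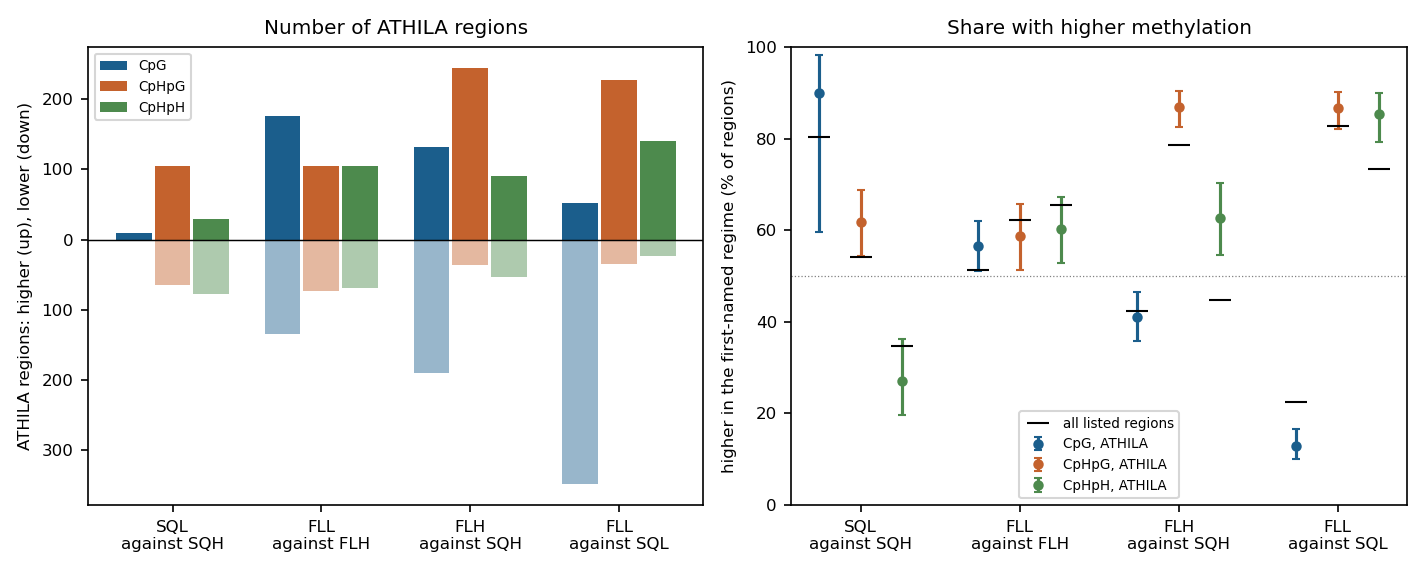
ATHILA regions by comparison and context. Left, the number of regions higher (full colour, above 0) and lower (pale, below 0) in the regime named first, for example 245 higher and 37 lower for CpHpG in FLH against SQH. Right, the percentage that were higher, with 95% Wilson intervals, and a black dash for the same percentage over all regions listed in that comparison and context. CpHpG shares lie near 87% in both comparisons of light pattern, and the CpG share of FLL against SQL is 13.0%.

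The intensity comparison under fluctuating light was closer to balance in every context. In FLL against FLH 176 of 311 CpG regions (56.6%, 51.0 to 62.0) were higher in FLL, beside 51.3% of all listed. Of 179 CpHpG regions 105 (58.7%, 51.3 to 65.6) were higher, beside 62.2%. Of 174 CpHpH regions 105 (60.3%, 52.9 to 67.3) were higher, beside 65.5%. Summed levels in FLL exceeded those in FLH by 3.38 points for CpG (74.6% in FLL, 71.2% in FLH), 5.27 points for CpHpG (50.1% in FLL, 44.8% in FLH) and 1.73 points for CpHpH (15.7% in FLL, 14.0% in FLH). At 8 or more reads per cytosine the differences were 0.612 points for CpG and 8.87 points for CpHpG.

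Under square light the contexts parted. In SQL against SQH 105 of 170 CpHpG regions (61.8%, 54.3 to 68.7) were higher in SQL, beside 54.1% of all listed, with a summed level of 47.0% in SQL and 39.6% in SQH, a difference of 7.35 points (6.25 to 8.45) that was 12.2 points at 8 or more reads per cytosine and 12.1 points at p-values up to 0.001. Only 29 of 107 CpHpH regions (27.1%, 19.6 to 36.2) were higher in SQL, beside 34.6% of all listed. Their summed level was 10.8% in SQL and 16.8% in SQH, a difference of -5.96 points (-6.48 to -5.44) that was -3.33 points at 8 or more reads per cytosine. CpHpH methylation was thus lower in the low-intensity regime under square light, while it was slightly higher under fluctuating light.

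CpG regions were few in that comparison. Of 10 listed, 9 were higher in SQL (90%, 59.6 to 98.2), beside 80.3% of all listed, with 84.5% in SQL (310 of 367 reads) and 53.4% in SQH (159 of 298 reads). The smallest CpG difference listed for SQL against SQH was 40.2 points, against 20 points in every other comparison, so the 10 regions cannot be set beside the 311 to 401 of the others. With at least 40 points in all comparisons there were 10 CpG regions in SQL against SQH, 9 in FLL against FLH, 11 in FLH against SQH and 4 in FLL against SQL. At that minimum 2 of the 4 regions of FLL against SQL were higher in FLL, so the one-sided loss there came, for all but 2 of the 349 lower regions, from differences between 20 and 40 points.

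**Figure D2:**
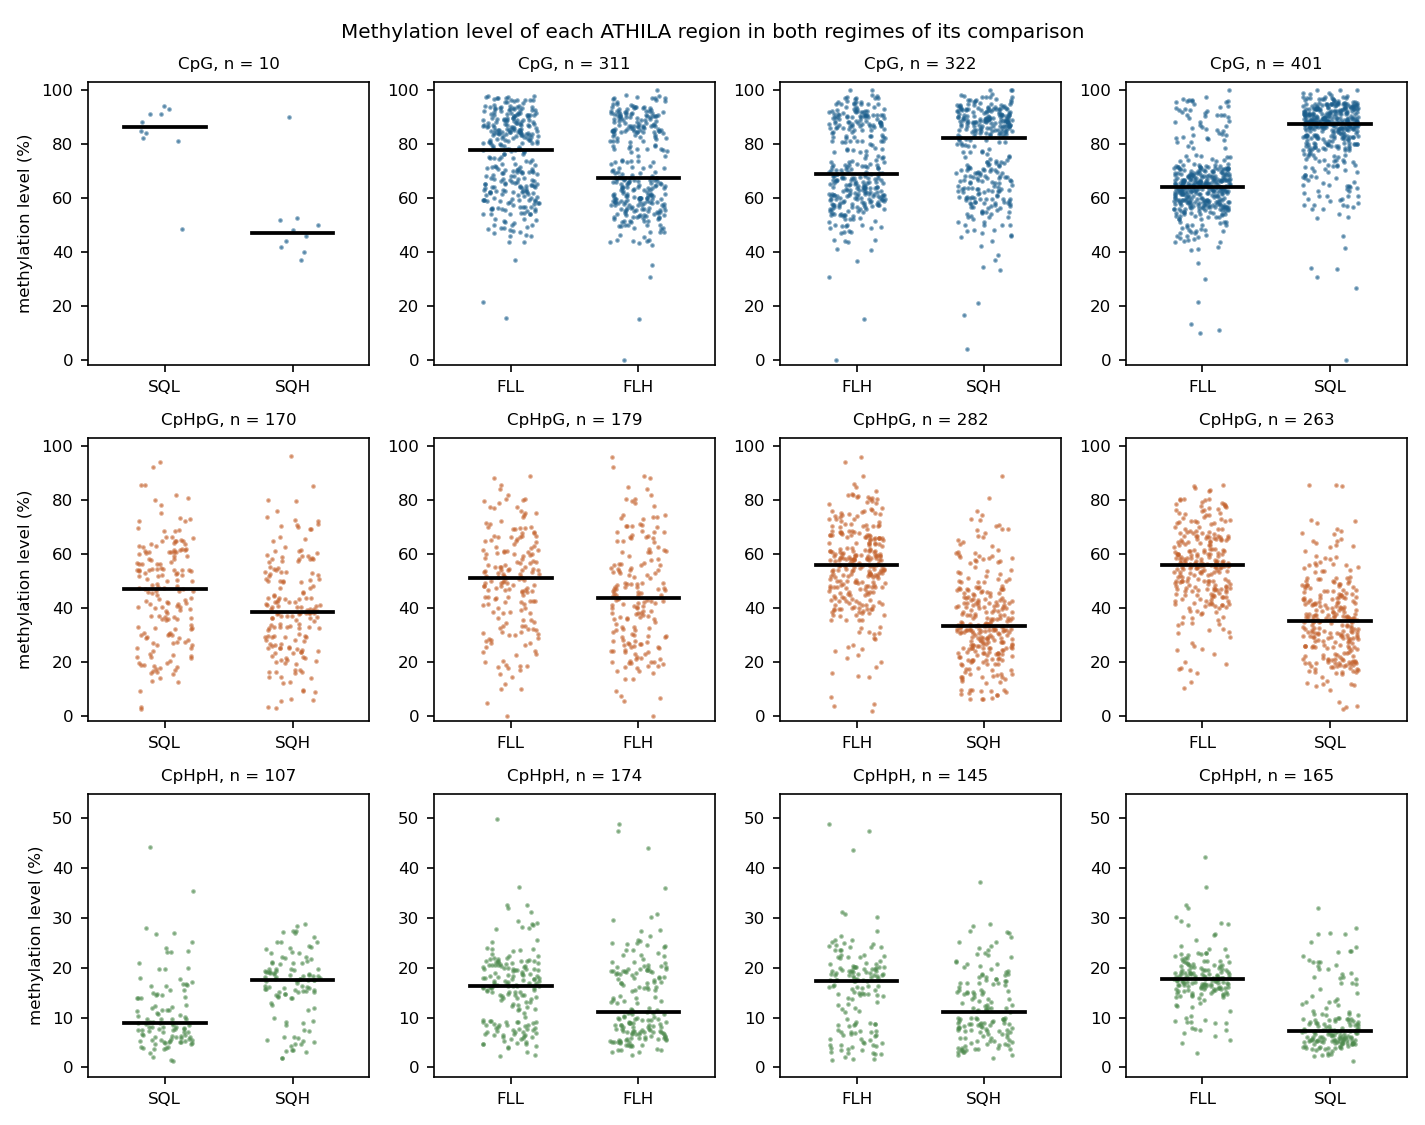
Methylation level (% of reads) of every ATHILA region in both regimes of its comparison, by context (rows) and comparison (columns). Each point is 1 region, placed with random sideways spread, and the black line is the median. In FLL against SQL the CpG medians are 64.1% in FLL and 87.2% in SQL, and the CpHpH medians are 17.8% in FLL and 7.35% in SQL.

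Depth was modest throughout. Regions with 8 or more reads per cytosine under both regimes compared numbered 66 in SQL against SQH, 116 in FLL against FLH, 122 in FLH against SQH and 256 in FLL against SQL. The median number of reads per cytosine in ATHILA regions lay between 5.83 and 8.55 over comparisons, contexts and regimes, against 6.82 to 9.80 over all listed regions. Median differences in size were 24.6 to 26.1 points for CpHpG, 24.7 to 25.5 points for CpG outside SQL against SQH, and 11.1 to 11.3 points for CpHpH, close to the minimum of 20 points (CpG, CpHpG) or 10 points (CpHpH) needed for listing.

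The families are named in the TE annotation by number, with LTR-only entries marked by a suffix and the internal part of ATHILA0 by _I. ATHILA2 held the most regions, with 657 in 186 loci (26.0% of all ATHILA regions), followed by ATHILA6A with 374 in 102 loci and ATHILA3 with 223 in 92 loci. ATHILA7A was the smallest, with 10 regions, and the other 15 families held at least 20 each.

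Families differed in which context was listed. CpHpH regions made up 42.9% of the 35 regions of ATHILA4D_LTR, 43.2% of the 44 of ATHILA7 and 36.5% of the 63 of ATHILA4B_LTR, but 8.57% of the 175 of ATHILA4C. CpG regions made up 78.6% of the 56 regions of ATHILA8A. CpHpG regions made up 49.1% of those of ATHILA4C and 16.1% of those of ATHILA8A.

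The direction of CpHpG was shared by the families, and it is that of the lists as a whole. Over all listed CpHpG regions 78.6% were higher in FLH than in SQH, and 82.8% were higher in FLL than in SQL. Between FLH and SQH, all 11 families with at least 5 CpHpG regions had more that were higher than lower in FLH, from 58.3% in ATHILA4A (7 of 12) to 100% in ATHILA0_I (16 of 16) and ATHILA5 (8 of 8). Between FLL and SQL, this held for all 12 such families, from 60% in ATHILA4D_LTR (3 of 5) to 95.2% in ATHILA4 (20 of 21). Summed CpHpG levels in ATHILA2 were 60.6% in FLH and 39.7% in SQH over 59 regions, and in ATHILA6A 58.4% in FLH and 39.9% in SQH over 46 regions.

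CpG losses in FLL against SQL were as widespread. They too have the direction of the list as a whole, where 22.4% of CpG regions were higher in FLL than in SQL. All 15 families with at least 5 CpG regions had more lower than higher in FLL, from 0 of 6 higher in ATHILA4B_LTR and 0 of 5 in ATHILA4D_LTR to 2 of 6 in ATHILA7. ATHILA2 had 65.7% in FLL and 83.0% in SQL over 102 regions. In FLH against SQH the families were divided, with 4 of 13 having more higher regions, 8 more lower and 1 tied. Over all listed CpG regions of that comparison 42.4% were higher in FLH. The extremes there were ATHILA0_I, with 12 of 19 CpG regions higher in FLH (79.3% in FLH, 71.0% in SQH), and ATHILA8B, with 1 of 6 (57.5% in FLH, 77.4% in SQH). ATHILA4, with 6 of 27 higher, was also low in FLH at 66.7%, against 82.5% in SQH.

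For CpHpH, 11 of 12 families had more regions higher in FLL than in SQL, the exception being ATHILA4D_LTR with 2 of 6. Over all listed CpHpH regions 73.3% were higher in FLL than in SQL. ATHILA2 had 17.3% in FLL and 9.34% in SQL over 41 regions, and ATHILA6A 17.9% in FLL and 8.93% in SQL over 33 regions. In SQL against SQH none of 8 families had more CpHpH regions higher in SQL, beside 34.6% higher among all listed. ATHILA4 had 0 of 6 higher, with 6.58% in SQL and 18.8% in SQH.

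**Figure D3:**
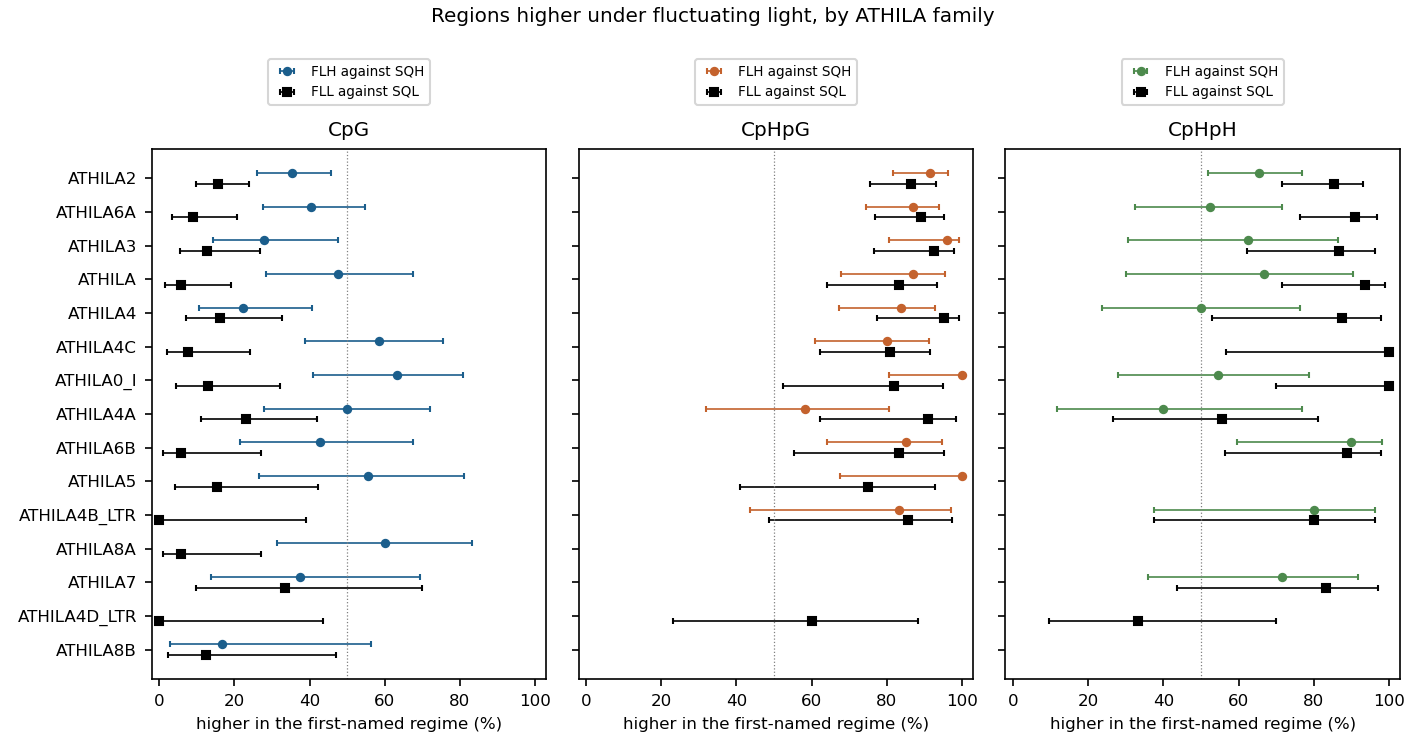
Percentage of regions higher under fluctuating light in ATHILA families with at least 20 regions, for CpG, CpHpG and CpHpH. Circles are FLH against SQH and squares FLL against SQL, bars are 95% Wilson intervals, and families with under 5 regions in a context are left out. All CpHpG points lie above 50%, between 58.3 and 100%, and all CpG squares lie at or below 33.3%.

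Other Gypsy elements listed in the same tables gave similar shares in CpHpG, and in CpG of FLL against SQL. Between FLH and SQH, 85.2% of 61 ATGP regions and 87.5% of 40 ATLANTYS regions were higher in FLH in the CpHpG context, beside 86.9% for ATHILA. In FLL against SQL 12.7% of 110 ATGP and 10.4% of 77 ATLANTYS CpG regions were higher in FLL, beside 13.0% for ATHILA. In FLH against SQH 39.0% of 77 ATGP and 30.4% of 69 ATLANTYS CpG regions were higher in FLH, beside 41.0% for ATHILA. Summed CpG levels there were 72.8% in FLH and 83.0% in SQH for ATLANTYS, beside 71.7% and 76.8% for ATHILA. CpHpH in FLH against SQH varied more, with 44.1% of 68 ATGP and 75.9% of 29 ATLANTYS regions higher in FLH, beside 62.8% for ATHILA. The differences between these groups were not tested.

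ATHILA regions were gathered around the centromeres. Pericentromeric stretches were taken as the longest run of 500 kb windows on each chromosome that held fewer than 0.5 times as many protein-coding genes as the median window (130.5), which covers 14.7% of the nuclear genome. Of ATHILA regions 2273 of 2529 (89.9%) lay there, against 64.0% of 775 ATGP regions, 76.6% of 580 ATLANTYS regions and 30.8% of all listed regions. With the stricter limit of 0.25 times, which covers 9.23% of the genome, 72.0% of ATHILA regions and 18.8% of all listed regions lay inside. At the limit of 0.5 times the ATHILA share was 80.7 to 95.0% over the 12 combinations of comparison and context. Distances from the middle of the stretch had a median of 0.772 Mb for ATHILA regions and 3.01 Mb for all listed regions.

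The densest 1 Mb window was 12 to 13 Mb of chromosome 5, with 223 regions (8.82% of all ATHILA regions). Windows at 4 to 5 Mb and 3 to 4 Mb of chromosome 4 followed with 206 and 205. Of the 256 regions outside the pericentromeric stretches, 117 lay on chromosome 2 and 76 on chromosome 4. On chromosome 2, 110 of them lay between 1.30 and 3.31 Mb, next to the stretch that starts at 3.5 Mb. On chromosome 4, 37 regions of 11 loci lay between 1.68 and 2.0 Mb of the short arm, which carries the heterochromatic knob, and 19 of those 37 were CpHpH.

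**Figure D4:**
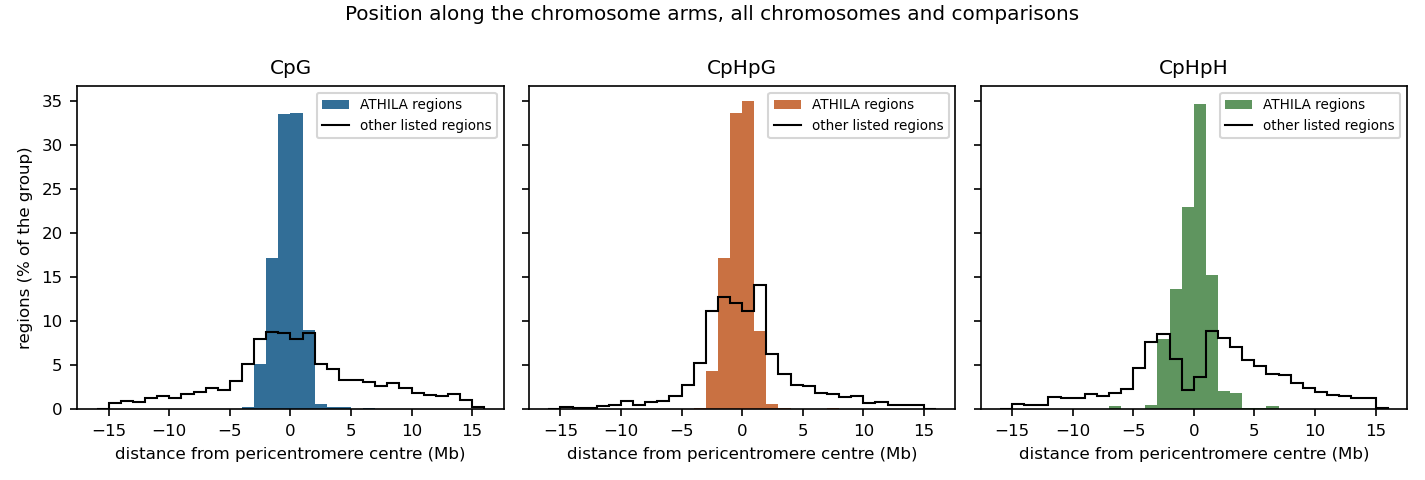
Distance in Mb of each region from the middle of the pericentromeric stretch of its chromosome, in 1 Mb bins, as a percentage of the ATHILA regions (filled) and of the other listed regions (black line) of each context, all comparisons together. ATHILA regions peak in the bins next to the middle, with a median distance of 0.772 Mb, while other regions extend along the arms.

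The share of higher regions was also taken by position. In FLH against SQH 11 of 28 CpHpH regions outside the pericentromeric stretches were higher in FLH (39.3%, 23.6 to 57.6), and 80 of 117 inside (68.4%, 59.5 to 76.1). For CpHpG these counts were 11 of 14 outside and 234 of 268 inside. Between FLL and SQL, all 20 CpHpG regions outside and 208 of 243 inside (85.6%, 80.6 to 89.5) were higher in FLL. For CpHpH, 20 of 25 outside (80%, 60.9 to 91.1) and 121 of 140 inside (86.4%, 79.8 to 91.1) were higher in FLL. The difference between positions was not tested. The share over all listed regions was not taken by position or chromosome, so nothing is read from these shares about ATHILA. Over all listed regions at any position, 44.7% of CpHpH, 78.6% of CpHpG and 42.4% of CpG regions were higher in FLH than in SQH. Between FLL and SQL the shares higher in FLL were 73.3%, 82.8% and 22.4% in that order. By chromosome, the CpHpG share higher in FLH than in SQH was 81.6 to 89.7%, and the CpG share higher in FLL than in SQL was 10.6 to 21.1%. The other contexts of FLH against SQH were more spread. There the CpG share higher in FLH was 31.1 to 52.2%, with summed levels on chromosome 5 of 74.6% in FLH and 74.0% in SQH, and the CpHpH share was 47.6 to 83.3%, with 14.4% in FLH and 14.8% in SQH on chromosome 2.

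The distance to genes was large. The nearest protein-coding gene lay at a median of 20.1 kb from ATHILA regions and 1.16 kb from all listed regions, and 3.91% of ATHILA regions lay within 1 kb of one, against 47.0% of all listed. The tables name a gene locus for 1383 ATHILA regions, 616 loci in all, of which RefSeq (TAIR10.1) annotates 596 (96.8%) as pseudogenes. Over all listed regions 43.5% of 5110 named loci are pseudogenes.

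Protein-coding loci were named for 17 regions of 12 genes, from which the following were chosen after their values were seen. AT1G40390, annotated as a member of the DNase I-like superfamily, had a CpG region at chr1:15432451-15432600 listed in both comparisons with FLL, at 64.6% in FLL (79 reads), 86.1% in FLH (79 reads) and 85.7% in SQL (91 reads). AT1G41920, annotated as a zinc finger protein related to a general transcription factor, had 68.4% CpHpG methylation in FLH (114 reads) and 47.1% in SQH (138 reads), and in another region 62.9% CpG methylation in FLL (89 reads) and 89.1% in SQL (101 reads). CpHpG was higher and CpG lower under fluctuating light there, as in most ATHILA regions listed.

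EXT6 (AT2G24980), which encodes an extensin, a structural protein of the cell wall, had a CpHpH region at chr2:10623851-10624000 with 1.67% in FLH (300 reads) and 12.0% in SQH (259 reads). This region lies on a chromosome arm. It went the opposite way to most ATHILA CpHpH regions of FLH against SQH. Outside the pericentromeric stretches, however, only 11 of 28 were higher in FLH, so most went the same way there. AT2G06095, an uncharacterised protein, had the largest CpG difference of these genes, with 88.0% in FLL (25 reads) and 41.4% in SQL (29 reads).

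ATHILA sequences differed from other listed TE regions in composition. The median GC content of CpG regions was 43.3% in ATHILA elements and 36.7% in other TEs, that of CpHpG regions 42.0% and 39.3%, and that of CpHpH regions 38.7% and 29.3%. The CpHpG cytosines of ATHILA CpHpG regions were CAG or CTG in the main. Over distinct positions CCG made up 920 of 9593 (9.59%), against 4350 of 21247 (20.5%) in CpHpG regions of other TEs.

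CCG is known as a poorer substrate of CMT3 than CAG and CTG. Between FLH and SQH, the 122 ATHILA CpHpG regions without a CCG had 59.0% in FLH and 39.3% in SQH, and the 160 with a CCG had 53.0% in FLH and 34.4% in SQH. The differences were 19.7 and 18.7 points. In FLL against SQL the differences were 19.4 points without and 17.8 points with a CCG. Levels were thus lower in regions with a CCG under all 4 regimes, while the differences between regimes were of similar size.

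A locus can hold several regions and so can be listed in several comparisons through different bins. Of the 956 loci 57 (5.96%) were listed in all 4 comparisons, 177 in 3 (18.5%), 285 in 2 (29.8%) and 437 in 1 (45.7%). Over all 7082 TE loci of the tables these shares were 7.85%, 15.4%, 29.5% and 47.3%. Of the 2248 distinct regions none was listed in 4, 7 were listed in 3 (0.311%) and 267 in 2 (11.9%), against 0.418% in 4, 1.70% in 3 and 18.8% in 2 for all listed regions. A locus had a median of 2 regions, and 19 loci had 10 or more.

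AT5TE43260, an ATHILA6A locus whose regions span chr5:12138005-12150154, had the most, with 15. Its 3 CpHpG regions of FLH against SQH were all higher in FLH, at 75.7% in FLH (284 reads) and 51.2% in SQH (342 reads). Another CpHpG region was higher in FLL than in both other regimes it was set against, at 69.3% in FLL (75 reads), 39.8% in FLH (98 reads) and 43.8% in SQL (105 reads). Under square light 2 of its 3 CpHpG regions were lower in SQL.

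AT1TE51050, an ATHILA6B locus with 14 regions at chr1:15492301-15498450, showed contexts moving apart. In FLH against SQH its CpG region had 53.1% in FLH (162 reads) and 83.1% in SQH (148 reads), while its 3 CpHpG regions had 65.8% in FLH (228 reads) and 40.9% in SQH (247 reads). Between FLL and SQL, CpG was again lower, at 67.0% in FLL and 87.2% in SQL, and CpHpG higher, at 80.2% in FLL and 57.1% in SQL. Its CpHpH region of FLL against SQL had 22.4% in FLL (268 reads) and 9.43% in SQL (403 reads). In FLL against FLH the contexts parted the other way round. There 3 CpG regions had 77.7% in FLL and 52.1% in FLH, and 1 CpHpG region had 32.0% in FLL and 60.7% in FLH. The 2 CpHpH regions of that comparison had 6.03% in FLL and 19.7% in FLH.

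AT5TE46685, an ATHILA4C locus with 13 regions at chr5:13119905-13127854, held the largest cluster of CpG losses among these loci. Its 4 CpG regions of FLL against SQL were all lower in FLL, at 66.6% in FLL (386 reads) and 92.2% in SQL (421 reads). Its 2 CpHpG regions under square light were higher in SQL, at 53.0% in SQL (321 reads) and 26.7% in SQH (281 reads). AT5TE42680, an ATHILA6A locus with 13 regions at chr5:11916605-11928004, had 3 CpHpH regions higher in FLL, at 19.8% in FLL (952 reads) and 7.66% in FLH (1044 reads).

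The other loci of this size were AT4TE15585 (ATHILA4C, 14 regions), AT1TE47550 (ATHILA2, 12), AT2TE24385 (ATHILA6A, 12) and AT1TE46265 (ATHILA6B, 11, the first by name of 5 loci with 11). AT1TE47550 was mainly a CpHpH locus, with 8 of 12 regions. Between FLH and SQH, its 2 CpHpH regions had 22.4% in FLH (490 reads) and 7.01% in SQH (499 reads). AT4TE15585 had no CpHpH region, and its 2 CpHpG regions of FLL against SQL had 59.5% in FLL (153 reads) and 30.8% in SQL (198 reads).

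Loci with regions in both CpG and CpHpG were counted by direction. In FLL against SQL 73 loci had both CpG and CpHpG regions. In 46 of them every CpG region was lower and every CpHpG region higher in FLL, in 11 both were lower, in 5 both were higher and in 11 a context was mixed. In FLH against SQH 31 of 72 such loci had CpG lower and CpHpG higher, and 25 had both higher. In FLL against FLH, 11 of 49 loci had CpG lower with CpHpG higher and 12 had both higher. Over all TE loci with both contexts, CpG was lower with CpHpG higher in 159 of 249 between FLL and SQL (63.9%, against 63.0% of ATHILA loci), in 73 of 183 between FLH and SQH (39.9%, against 43.1%) and in 30 of 147 between FLL and FLH (20.4%, against 22.4%). The ATHILA shares were close to these, and nothing is read from them about ATHILA.

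Where the same bases were called in 2 contexts the directions were mostly the same. CpG and CpHpG regions of 1 comparison overlapped in 23 pairs (2.20% of CpG and 2.57% of CpHpG regions), and 21 pairs had the same direction, beside 121 of 125 over all listed regions. CpHpG and CpHpH regions overlapped in 16 pairs (1.79% of CpHpG and 2.71% of CpHpH regions), all in the same direction, beside 364 of 367 over all listed regions (9.29% and 2.89%). CpG and CpHpH regions overlapped in 12 pairs (1.15% of CpG and 2.03% of CpHpH regions), all in the same direction, beside 132 of 144 over all listed regions (1.75% and 1.13%). The opposite directions of CpG and CpHpG within a locus came from different bins, apart from 2 pairs. At chr5:12156455-12156604 (AT5TE43290, ATHILA2) CpG methylation was 69.6% in FLH (46 reads) and 96.2% in SQH (52 reads), while CpHpG methylation was 40.4% in FLH (57 reads) and 9.23% in SQH (65 reads). The second pair lay in AT1TE51050.

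Few single regions were listed for light pattern at both intensities. Of CpHpG regions 6 were listed both in FLH against SQH (2.13% of its regions) and in FLL against SQL (2.28%), and all 6 were higher under fluctuating light in both, beside 30 of 34 with the same direction over all listed regions. Of CpG regions 8 were listed in both (2.48% and 1.995%), with 5 lower in both and 3 in opposite directions, beside 43 of 127 with the same direction over all listed regions (5.96% and 3.55%). Of CpHpH regions 3 were listed in both (2.07% and 1.82%) and 1 had the same direction, beside 214 of 422 over all listed regions (12.8% and 11.9%). For intensity, the 2 CpG, 2 CpHpG and 3 CpHpH regions listed in both comparisons had the same direction in 1, 1 and 2 cases, beside 1 of 10 CpG, 4 of 6 CpHpG and 146 of 322 CpHpH regions over all listed regions.

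Levels in all 4 regimes were on record for 24 regions, those listed in 2 comparisons with no library in common. Of the 8 CpHpG regions among them, 6 were listed for light pattern at both intensities and were higher under fluctuating light in both. For these 6 that choice alone places the highest level in a fluctuating regime and the lowest in a square regime. Over the 8 regions the highest level was in FLL in 5 and in FLH in 3, and the lowest in SQH in 6 and in SQL in 2. The CpHpG region of AT4TE15585 at chr4:3434051-3434200 had 41.4% in FLL (70 reads), 28.4% in FLH (88 reads), 11.7% in SQL (94 reads) and 6.12% in SQH (49 reads). That of AT5TE40270 (ATHILA6A, chr5:11105255-11105404) had 42.7% in FLL, 42.6% in FLH, 20.3% in SQL and 14.3% in SQH. In both, each fluctuating regime stood above each square regime, an order that listing for light pattern at both intensities favours.

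The 10 CpG regions had no such order, but some were the reverse of it. AT3TE50605 (ATHILA2, chr3:12193301-12193450) had 56.7% in FLL (30 reads), 57.6% in FLH (33 reads), 86.0% in SQL (43 reads) and 88.1% in SQH (67 reads). AT4TE15990 (ATHILA4, chr4:3570551-3570700) had 55.2% in FLL, 56.7% in FLH, 88.2% in SQL and 84.2% in SQH. These examples were chosen after their values were seen. Both were listed for light pattern at both intensities, which favours such an order.

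The 7 regions listed in 3 comparisons, also picked out after the values were known, had another arrangement. In each of them FLH and SQL lay on one side and FLL and SQH on the other. The CpG region of AT3TE59600 (ATHILA2, chr3:14545301-14545450) had 54.2% in FLL (24 reads), 92.1% in FLH (38 reads), 88.0% in SQL (25 reads) and 45.8% in SQH (24 reads). The CpHpH region of AT5TE38845, whose sequence is printed above, had 14.1% in FLL (590 reads), 23.6% in FLH (301 reads), 26.8% in SQL and 8.83% in SQH. Each library enters 2 of the 4 comparisons, so that these listings are not independent of each other. A listing in 3 comparisons needs a large difference in each of 3 neighbouring pairs of regimes. That choice favours levels that alternate in this way, so nothing is read from the arrangement.

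The other 5 held to it, with some regions higher in FLH and SQL and others lower. AT2TE16575 (ATHILA2, CpG) and AT5TE42880 (ATHILA4C, CpHpG) were highest in FLH, at 80.5% and 70.2%, and AT3TE47955 (ATHILA4B_LTR, CpHpH) also, at 47.5%. The interval of SQL overlapped that of SQH in AT2TE16575 and that of FLL in AT3TE59600. The intervals of SQL and FLL also overlapped in AT5TE42880, with 54.1% in SQL (44.2 to 63.6) and 43.7% in FLL (34.5 to 53.3), and in AT3TE47955, with 44.2% in SQL (39.1 to 49.4) and 36.3% in FLL (31.3 to 41.7). The CpHpH region at chr4:1694051-1694200, named ATHILA2 or ATHILA3 in different tables, was high in FLL and SQH, at 20.8% in each, against 9.79% in FLH and 10.7% in SQL. The CpG region of AT1TE41445 (ATHILA7, chr1:12710701-12710850) had 21.6% in FLL (51 reads) and 21.2% in SQH (33 reads). None of 51 reads in FLH and 35 reads in SQL was methylated there, which allows levels of up to 5.88% and 8.57%.

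**Figure D5:**
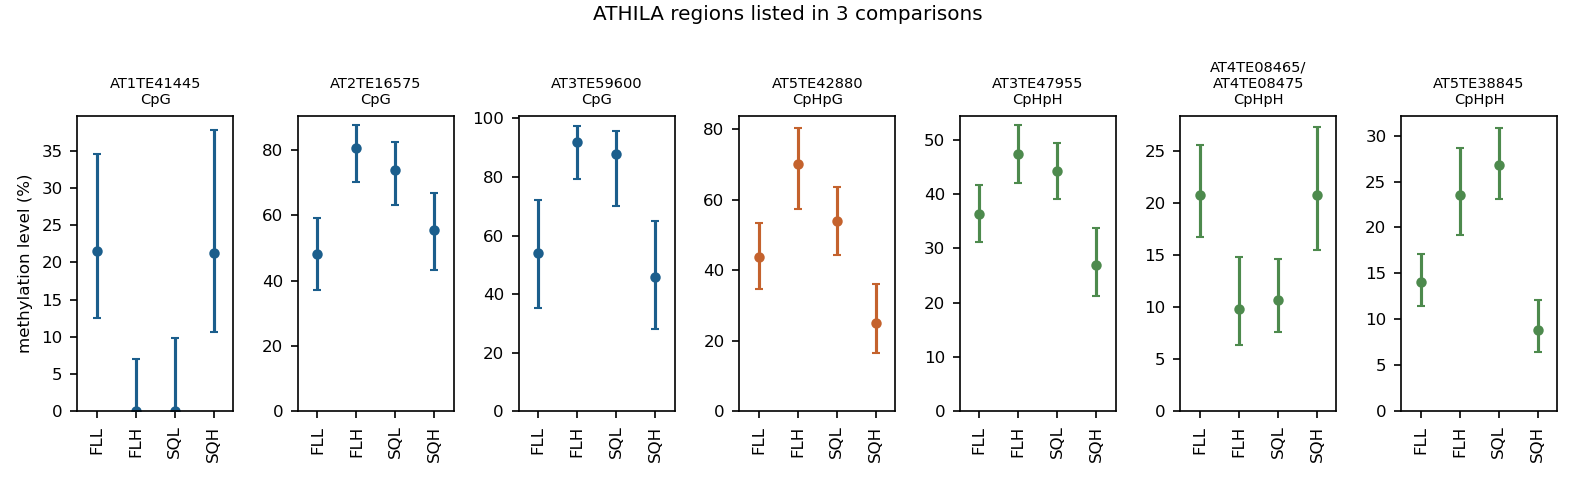
Methylation level (%) in FLL, FLH, SQL and SQH of the 7 ATHILA regions listed in 3 comparisons, with 95% Wilson intervals of the reads. Each panel is 1 region, named by TE locus and context, on its own scale from 0. FLH and SQL lie on one side of FLL and SQH, but the interval of SQL overlaps that of FLL in AT3TE59600, AT3TE47955 and AT5TE42880 and that of SQH in AT2TE16575. The choice of regions listed in 3 comparisons favours this arrangement. In AT3TE59600 the levels were 92.1% in FLH and 88.0% in SQL, against 54.2% in FLL and 45.8% in SQH.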

How the data were processed

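Whole genome bisulfite sequencing had been run on 1 library for each of 4 light regimes. Per the submitters' processing notes, reads were trimmed with Trimmomatic 0.39 and aligned with Bismark and Bowtie2 to TAIR10. The authors called regions with DMRcaller in 150 bp bins per context and deposited 4 tables. Each region has deposited counts of methylated and total reads in both regimes, the number of cytosines and the authors' p-value. The tables hold regions with at least 4 cytosines and 4 reads per cytosine in each regime, and p-values up to 0.00954. Whether the p-values were adjusted is not stated. The authors' columns of direction and proportion were not used. Bismark and Bowtie2 versions are not given in the sources used here.

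Members were all lines whose TE family name begins with ATHILA, counted once per chromosome, start, end, context and table (the table of SQL against SQH repeats lines, 443 for 287 ATHILA regions). A level is methylated over total reads, in percent, also for reads summed over regions. No test was run, since there is 1 library per regime and the regions were chosen on the same reads. Wilson and Newcombe intervals have 95% confidence. The code was tested on simulated data. Python 3.11.15, pandas 2.3.3, numpy 2.4.6, SciPy 1.17.1 and matplotlib 3.10.9 were used. Sequences and gene annotation came from RefSeq TAIR10.1, whose nuclear coordinates are those of TAIR10. The number of cytosines matched the reference in 2528 of 2529 ATHILA regions.

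Named regions were the largest difference of each table and context at 8 or more reads per cytosine, the 8 loci with the most regions (ties by name), families with at least 20 regions, and regions listed in all 4 tables. As none was in all 4, the 7 in 3 tables were described instead. Members, families and rules were chosen with earlier results of these data known. Alternatives were a depth of 8 reads per cytosine, a p-value of 0.001, a CpG minimum of 40 points, counting every line, requiring every TE family named at a region to be ATHILA, joining regions within 1 kb, means over regions and windows under 0.25 times the median gene number.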

Additional observations from a re-analysis of the deposited data

Results flagged for a closer look

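CpHpH methylation of ATHILA regions differed in opposite directions between low and high intensity under the square and the fluctuating pattern. Reads summed over the listed regions gave -5.96 points in SQL against SQH (10.8% in SQL, 16.8% in SQH, 107 regions) and 1.73 points in FLL against FLH (15.7% in FLL, 14.0% in FLH, 174 regions). Over all listed CpHpH regions the values were -4.54 points in SQL against SQH (19.8% in SQL, 24.4% in SQH) and 4.49 points in FLL against FLH (25.7% in FLL, 21.2% in FLH), so the direction is that of the lists as a whole. The regions behind the values are largely different, as 3 were listed in both comparisons. The difference between the patterns was not tested, and there is 1 library for each regime.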

How the results depend on the processing

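Of 106 alternative values 64 stayed within 1.5 times the count or within the counting interval, and 42 lay outside. Only the pooled differences could change sign, and none of them did. The CpG minimum of 40 points was not applied to the pooled differences. With at least 8 reads per cytosine the numbers of regions were 66 for SQL against SQH, 116 for FLL against FLH, 122 for FLH against SQH and 256 for FLL against SQL. With p-values of at most 0.001 they were 174, 345, 351 and 389 for the comparisons in that order. With a CpG minimum of 40 points they were 362 for FLL against FLH, 438 for FLH against SQH and 432 for FLL against SQL. Counting every line gave 443 for SQL against SQH. The share of CpHpG regions higher in SQL than in SQH was 69.8% at 8 reads and 70.7% at the stricter p-value. At the stricter p-value CpHpG shares were 94.9% in FLH against SQH and 94.3% in FLL against SQL, and the CpG share of FLL against SQL was 8.33%. With the 40-point minimum the CpG share was 77.8% in FLL against FLH and 50% in FLL against SQL, over 9 and 4 regions. Pooled differences at 8 reads per cytosine were 12.2 (CpHpG) and -3.33 points (CpHpH) for SQL against SQH, 0.612 (CpG), 8.87 (CpHpG) and 2.36 (CpHpH) for FLL against FLH, -2.50 (CpG) and 4.78 (CpHpH) for FLH against SQH, and 20.04 (CpHpG) for FLL against SQL. At the stricter p-value they were 12.1 (CpHpG) for SQL against SQH, 7.62 (CpHpG) for FLL against FLH, -6.06 (CpG) and 24.2 (CpHpG) for FLH against SQH, and -21.6 (CpG) and 23.3 (CpHpG) for FLL against SQL. Means over regions gave 5.72 (CpHpG) and -5.28 points (CpHpH) for SQL against SQH and 2.16 (CpHpH) for FLL against FLH. Windows under 0.25 times the median gene number held 64.8% of ATHILA regions in SQL against SQH, 72.9% in FLL against FLH, 71.2% in FLH against SQH and 74.4% in FLL against SQL, since they cover less of the genome (9.23%). At 8 reads the pericentromeric share was 83.6% in FLL against FLH and 86.9% in FLH against SQH. Why the other values moved was not tested. One library per regime, 4 reads per cytosine and lists of called regions only set the limits: regime and plant pool cannot be told apart, small differences are not detectable at this depth, and unlisted ATHILA bins were not analysed here. No paired analysis was possible because no regime has a replicate.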
